A study of Homo sapiens with 6 samples.

Results

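The genes described here belong to the Wnt/beta-catenin pathway: CTNNB1, AXIN2, LGR5, NKD1, DKK1, GLUL, LEF1, TCF7, RNF43 and ZNRF3. They were read in MHCC97H, an established human hepatocellular carcinoma line, in cells left after heating at 47 °C. The residual cells of all 6 samples were kept in DMEM with serum and then cultured for 24 h, 3 samples without POSTN (control) and 3 with recombinant POSTN at 100 ng/mL. POSTN (periostin) is an extracellular matrix protein with integrin receptors, and the comparison asks which transcripts differ when it is added to heat-surviving cells. No unheated cells are among the samples, so heat itself was not compared. The labels number the samples 1 to 3 within each condition, and do not say whether they came from separate cultures. The p-values therefore measure only the spread between these samples, which may be technical.

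Members were taken as every probe set of the Affymetrix Human Genome U133 Plus 2.0 array whose annotation lists exactly 1 of the 10 symbols. This gave 22 probe sets of 9 genes, out of 54613 probe sets tested and 19775 genes with such a probe set. TCF7 was not analysed here. All values are log2 of the signals that the MAS 5.0 algorithm gave, so that a difference of 1 is a change of 2-fold. A mean over the 6 arrays at or under 5.98 was called within the background range. This is the 95th percentile of 107 probe sets of olfactory receptor genes. Above this level lay 11 member probe sets, of CTNNB1, AXIN2, DKK1, GLUL, RNF43 and ZNRF3. The other 11, among them every probe set of LGR5, NKD1 and LEF1, were within the background range.

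When a Wnt ligand binds a Frizzled receptor and LRP5 or LRP6, the cytoplasmic complex of AXIN, APC and GSK3 no longer marks beta-catenin for degradation. Beta-catenin then enters the nucleus and joins the TCF and LEF factors on DNA. Several of the genes that are switched on restrain the pathway again: AXIN2 acts in the degradation complex, NKD1 binds Dishevelled, DKK1 blocks the LRP receptors from outside the cell, and RNF43 and ZNRF3 remove Frizzled receptors from the membrane. In liver the pathway is known for its activity in hepatocytes around the central vein, where GLUL is a classical target. CTNNB1 itself is controlled mostly through the stability of its protein, which the arrays do not read.

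No member passed the main test between POSTN and control cells, a limma fit without the sample number as a block. By limma, 0 of 22 probe sets passed an adjusted p under 0.05, as for all probe sets (0%). At an unadjusted p under 0.05 the count was also 0 of 22, against 3.02% of all probe sets, and by the t-test of the study's methods it was 0 on log2 and on linear values. None met the thresholds of those methods, an unadjusted p under 0.05 with a fold over 2 or under 0.5, which 2.56% of all probe sets met. The 11 probe sets above background differed by -0.18 to 0.51 between conditions, with a median size of 0.11 against 0.092 for all probe sets above background. Of the 22 differences 16 were above 0 and 6 below, and of the 11 above background 7 and 4. By the brightest probe set of each gene, 6 of 9 members were above 0, and 9902 of all 19775 genes. Probe sets of 1 gene are not independent, and median centring shifted the differences of all probe sets by a median of -0.051. Every adjusted p was 1.0. In these bulk samples, fewer cells of a type and less RNA per cell cannot be told apart.

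**Figure D1:**
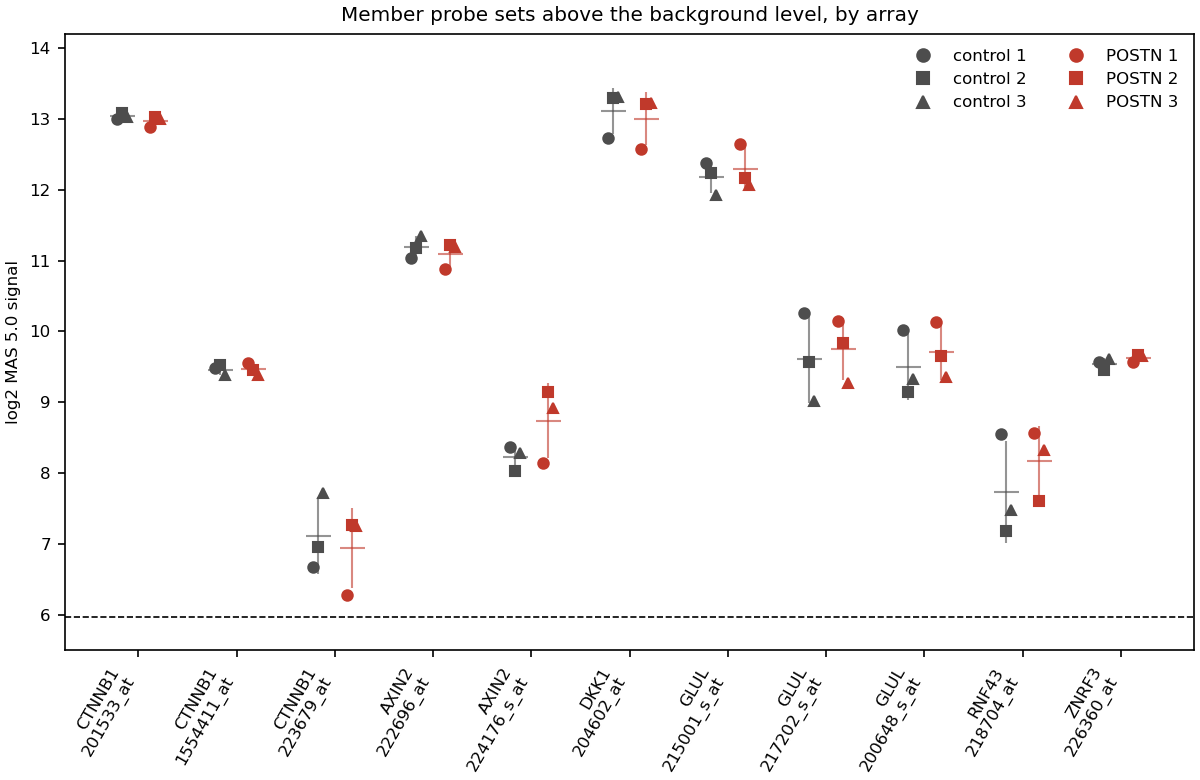
Log2 signals of the 11 member probe sets above background, with a point per array (control grey, POSTN red; circles, squares and triangles for numbers 1, 2 and 3), the mean and SD of each condition as bars and the background level of 5.98 as a dashed line. The circles are the lowest of each condition for DKK1 and the highest for GLUL and RNF43, while control and POSTN arrays overlap on every probe set.

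CTNNB1, which encodes beta-catenin, had log2 signals of 12.99, 13.08 and 13.03 in control samples 1 to 3 and of 12.88, 13.02 and 13.00 in POSTN samples 1 to 3 (probe set 201533_at). The conditions overlapped, and POSTN minus control was -0.066 (SE 0.080, 95% interval -0.24 to 0.11). The interval thus covers changes of up to 0.24 on the log2 scale, and the mRNA of the pathway's transducer did not pass the test. Probe set 1554411_at gave 0.0046 (SE 0.12). On the dimmer 223679_at the difference was -0.18 (SE 0.37), with arrays spread from 6.29 to 7.73.

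AXIN2, the negative feedback gene most often used to read the pathway, had 11.04, 11.18 and 11.35 in control samples and 10.89, 11.22 and 11.19 in POSTN samples on 222696_at. These conditions overlapped too, at a difference of -0.091 (SE 0.12, 95% interval -0.36 to 0.18). Probe set 224176_s_at gave the largest difference of any member above background: it read 8.37, 8.04 and 8.29 in control samples and 8.15, 9.15 and 8.92 in POSTN samples. POSTN samples 2 and 3 were above all control samples, whereas POSTN sample 1 was below control samples 1 and 3. The difference was 0.51 (SE 0.25, 95% interval -0.047 to 1.06, limma unadjusted p = 0.069, adjusted p = 1.0). Its size depended on single arrays. Without POSTN replicate 2 it was 0.30 (limma unadjusted p = 0.28), without POSTN replicate 1 it was 0.80 (limma unadjusted p = 0.0016) and without both arrays numbered 1 it was 0.87 (limma unadjusted p = 0.00065), with an adjusted p of 1.0 in all 3 cases. With the sample number as a block, the 95% interval was 0.038 to 0.98 (limma unadjusted p = 0.037, adjusted p = 0.97). The brighter 222696_at, at -0.091, lay on the other side of 0. The dim 222695_s_at gave 1.14 (SE 0.83), where control sample 2 read 2.88 and the other arrays 6.16 to 6.43. Without control replicate 2 its difference was 0.0086. On the dim 224498_x_at the difference was 1.48 (SE 0.76), and 0.72 without control replicate 1. Its control samples at 2.61, 5.01 and 4.78 lay below POSTN samples at 5.34, 5.5 and 6.0. It was the only member probe set whose conditions did not overlap. That is 1 of 22, against 7.94% of all probe sets.

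ZNRF3 had 9.57, 9.45 and 9.61 in control samples and 9.58, 9.66 and 9.66 in POSTN samples, the narrowest spread of the feedback genes. The difference was 0.089 (SE 0.11, 95% interval -0.17 to 0.34). RNF43, its close relative among the membrane ubiquitin ligases, had 8.55, 7.19 and 7.47 in control samples and 8.57, 7.61 and 8.32 in POSTN samples. Both samples numbered 1 were high and the conditions overlapped. POSTN minus control was 0.43 (SE 0.36, 95% interval -0.37 to 1.24), and without control replicate 1 it was 0.84 (limma unadjusted p = 0.018, adjusted p = 0.99). With the number as a block, the 95% interval was 0.014 to 0.85 (limma unadjusted p = 0.044, adjusted p = 0.97).

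DKK1 had 12.73, 13.29 and 13.31 in control samples and 12.57, 13.21 and 13.23 in POSTN samples. Samples numbered 1 were the low ones in both conditions, and POSTN minus control was -0.11 (SE 0.20, 95% interval -0.54 to 0.33). The POSTN sample was below the control sample of the same number for all 3 numbers, though the labels do not say that a number marks a pair. With the number as a block the 95% interval was -0.22 to 0.0062 (limma unadjusted p = 0.062, adjusted p = 0.97). GLUL, the enzyme that makes glutamine from glutamate and ammonia, had 12.38, 12.24 and 11.93 in control samples and 12.64, 12.17 and 12.06 in POSTN samples on 215001_s_at. The conditions overlapped at a difference of 0.11 (SE 0.16, 95% interval -0.25 to 0.46). Its other probe sets above background gave 0.14 (SE 0.30) and 0.22 (SE 0.25).

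**Figure D2:**
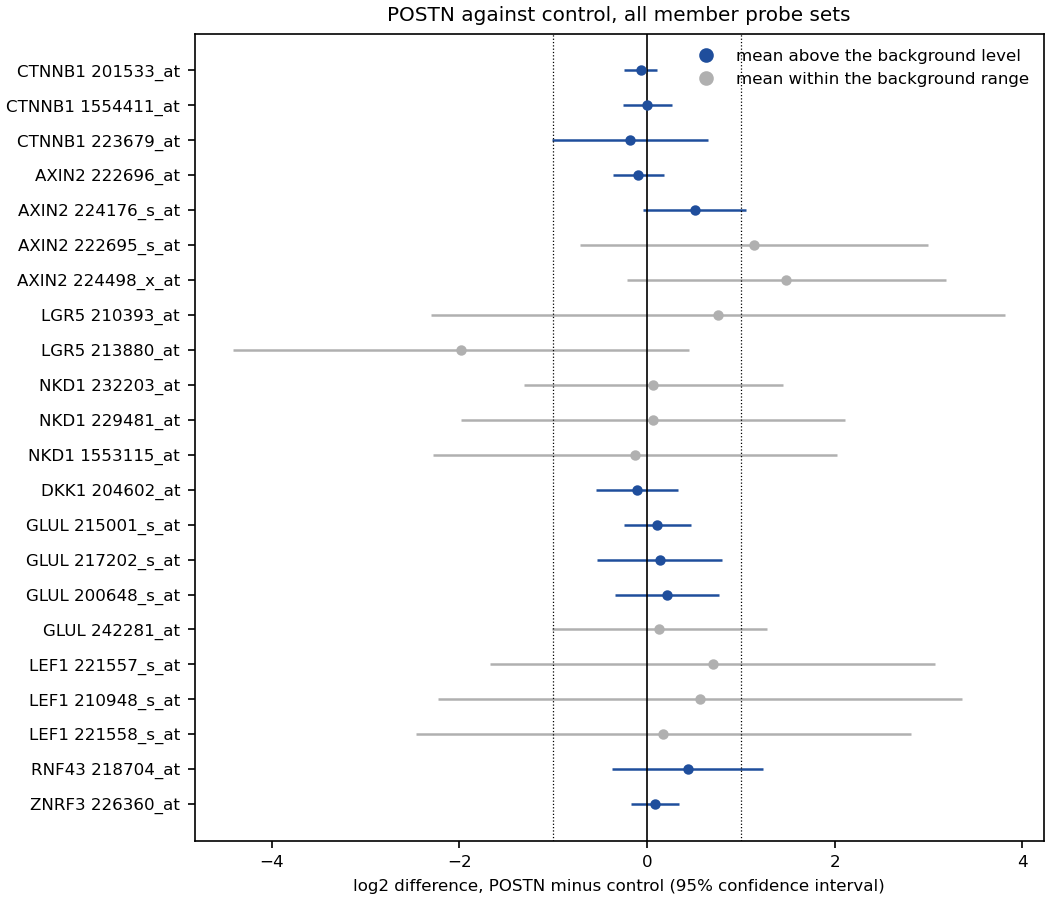
POSTN minus control of every member probe set on the log2 scale, with 95% intervals from limma without the number as a block (blue above background, grey within its range) and dotted lines at a fold of 2 up or down. All 22 of these intervals cross 0 (with the block, those of RNF43 and AXIN2 224176_s_at do not), and those of the 11 probe sets within the background range are the widest.

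The genes within the background range carry wide errors. MAS 5.0 subtracts a mismatch signal, so dim probe sets scatter on the log2 scale, and the SE of POSTN minus control was 0.51 to 1.37 for the 11 dim probe sets against 0.080 to 0.37 for the 11 brighter ones. LGR5, a receptor for R-spondins, read 2.31, 2.73 and 2.18 in control samples and 0.95, 6.64 and 1.90 in POSTN samples on 210393_at, where only POSTN sample 2 was above the background level. LEF1, a DNA-binding partner of beta-catenin, was at or below 5.94 on every array of its 3 probe sets. NKD1 spanned 1.87 to 6.52 over its 3 probe sets, and its 232203_at read 6.52, 5.65 and 4.58 in control samples and 6.23, 5.84 and 4.87 in POSTN samples, a difference of 0.068 (SE 0.62). A POSTN effect on these 3 genes was not detectable at this signal, which is not the same as absent. Without control replicate 2, LGR5 213880_at and AXIN2 224498_x_at met the study's thresholds, and no other array left out brought a member past them.

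**Figure D3:**
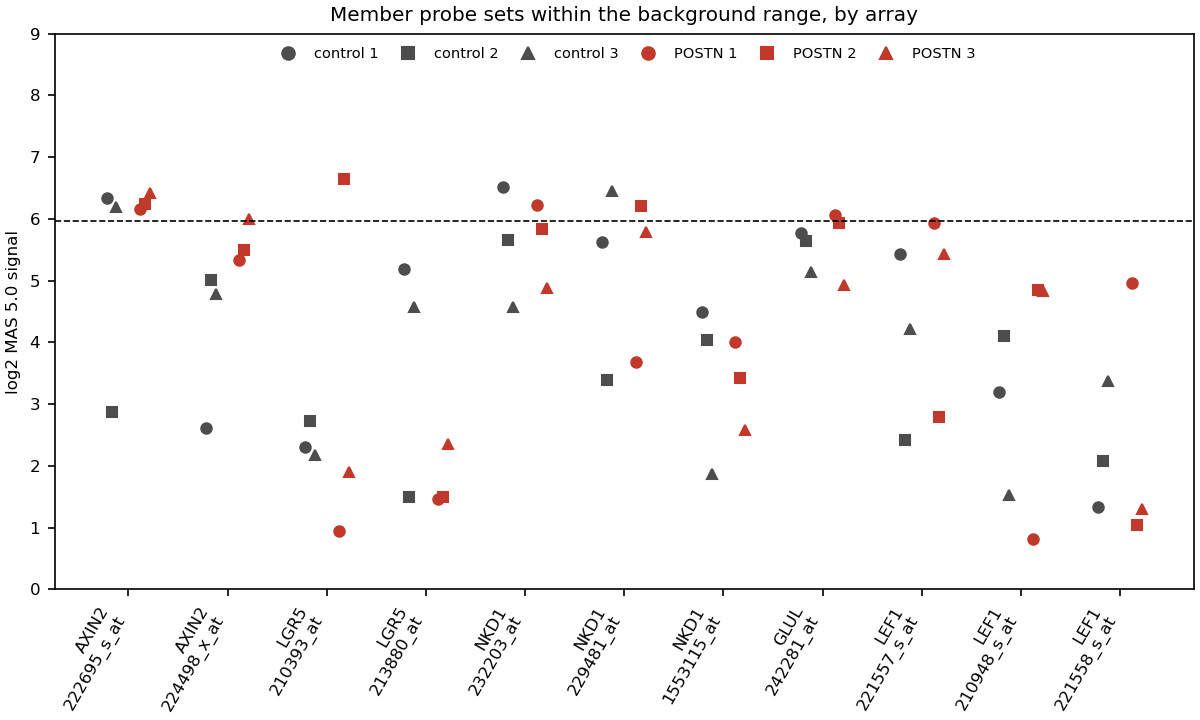
Log2 signals of the 11 member probe sets within the background range, with a point per array (control grey, POSTN red, symbols by number) and the background level of 5.98 as a dashed line. Most points lie under the line, and replicates of a condition differ by several log2 units on some probe sets.

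The sample number separated some members. Arrays numbered 1 were compared with those numbered 2 and 3 in a limma fit that also holds the condition. The labels do not say what a number stands for, and that number 1 stands apart was known from earlier results of these data. At an adjusted p under 0.05, 5 of the 22 member probe sets differed, against 5.62% of all probe sets, and all 5 were among the 11 above background, where the share of all probe sets is 11.7%. Of them 4 were higher in number 1 (GLUL on 3 probe sets and RNF43; 2.91% of all probe sets) and 1 was lower (DKK1; 2.71%). The groups did not overlap on 9 of 22 member probe sets, against 26.3% of all. The 3 GLUL probe sets read 1 gene and are not independent of one another.

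DKK1, listed by sample above, was lower in both arrays numbered 1 than in all 4 others. The difference was -0.61 (SE 0.054, limma adjusted p = 8.8e-05), or 1.52-fold lower, and was -0.57 within control and -0.64 within POSTN. Leaving out any 1 array kept it between -0.64 and -0.57 and past the threshold. RNF43 was higher in the arrays numbered 1 by 0.91 (SE 0.23, limma adjusted p = 0.047), with 1.22 within control and 0.60 within POSTN. This call was lost on leaving out any array but POSTN replicate 3, with adjusted p-values up to 0.52 (without control replicate 1, where the difference was 0.60).

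GLUL was higher in number 1 on all 3 probe sets above background. On 215001_s_at, both arrays numbered 1 were above all 4 others, by 0.41 (SE 0.090, limma adjusted p = 0.022). On 217202_s_at the samples read 10.27, 9.57 and 9.01 in control and 10.15, 9.83 and 9.28 with POSTN, and number 1 was higher by 0.78 (SE 0.18, limma adjusted p = 0.030). Probe set 200648_s_at read 10.02, 9.14 and 9.33 in control and 10.14, 9.66 and 9.35 with POSTN. Here too the 2 number 1 arrays were the highest, by 0.71 (SE 0.12, limma adjusted p = 0.0046), or 1.64-fold. Without control replicate 1 or without POSTN replicate 1, none of the 3 GLUL probe sets passed, at differences of 0.30 to 0.97. Probe set 215001_s_at also missed the threshold without control replicate 3 or POSTN replicate 2 or 3, and 217202_s_at without POSTN replicate 3.

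CTNNB1, AXIN2 and ZNRF3 did not pass an adjusted p under 0.05 on the number when all probe sets were tested. AXIN2 222696_at gave -0.27 for number 1 minus the others (SE 0.075, limma adjusted p = 0.061), and it passed by limma when only probe sets with a mean above background were tested (adjusted p = 0.034), with every array above background (adjusted p = 0.028) and without control replicate 2 (adjusted p = 0.026). CTNNB1 223679_at gave -0.82 (SE 0.29, limma unadjusted p = 0.016, adjusted p = 0.15), with both arrays numbered 1 the lowest of their condition, and it passed when every array had to be above background (limma adjusted p = 0.046). CTNNB1 201533_at differed by -0.096 (SE 0.055) and ZNRF3 by -0.023 (SE 0.10). On AXIN2 224176_s_at the number 1 array was above the others of its condition by 0.21 in control and below by a difference of -0.89 with POSTN. The interaction of number and condition passed no adjusted test by limma on any of the 22 member probe sets or on any of all probe sets (2 members and 2474 of all at an unadjusted p under 0.05, smallest member adjusted p = 0.99). With a prior variance that does not follow the signal, limma called 0 of all probe sets, DKK1 included (adjusted p = 0.27), and 6261 at an unadjusted p under 0.05.

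**Figure D4:**
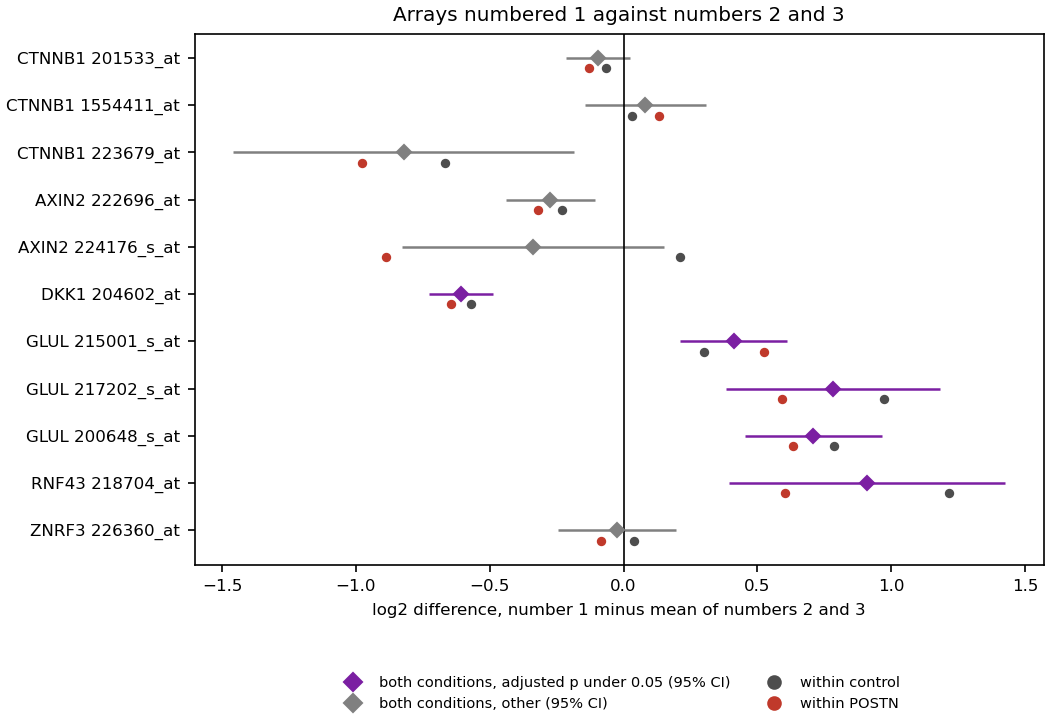
Arrays numbered 1 minus numbers 2 and 3 for the member probe sets above background, on the log2 scale, with 95% intervals from limma (diamonds) and the values within control (grey) and POSTN (red). DKK1 lies below 0, and RNF43 and the 3 GLUL probe sets lie above it, in both conditions.

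The windows before the transcription start of DKK1, GLUL and RNF43 are shown as those of the 3 members called on the number. The sequences are from RefSeq on GRCh38.p14, 250 bases that end at the annotated start, read on the gene's strand, with matches to the core TCF/LEF motif in capitals. For GLUL and RNF43, which have 2 windows each, the first is given.

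DKK1, chr10:52314031-52314280 (+ strand): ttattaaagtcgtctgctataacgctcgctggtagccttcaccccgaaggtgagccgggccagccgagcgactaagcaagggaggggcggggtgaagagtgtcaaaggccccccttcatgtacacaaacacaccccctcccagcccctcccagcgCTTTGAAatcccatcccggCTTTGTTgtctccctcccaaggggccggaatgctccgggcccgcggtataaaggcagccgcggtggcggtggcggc
GLUL, chr1:182391791-182392040 (- strand): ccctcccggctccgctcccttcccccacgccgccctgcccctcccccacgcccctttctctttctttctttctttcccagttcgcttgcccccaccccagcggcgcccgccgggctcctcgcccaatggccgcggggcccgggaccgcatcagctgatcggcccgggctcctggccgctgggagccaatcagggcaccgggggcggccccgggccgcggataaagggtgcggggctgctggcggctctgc
RNF43, chr17:58417535-58417784 (- strand): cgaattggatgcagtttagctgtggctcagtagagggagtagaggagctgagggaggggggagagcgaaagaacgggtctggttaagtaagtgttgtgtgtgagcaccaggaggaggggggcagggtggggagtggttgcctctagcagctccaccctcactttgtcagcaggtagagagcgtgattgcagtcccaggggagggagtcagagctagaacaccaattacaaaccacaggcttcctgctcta

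The motif was CTTTGAA or CTTTGAT or CTTTGTA or CTTTGTT on either strand. RefSeq windows were at hand for 5 of the 9 measured genes (CTNNB1, DKK1, GLUL, LEF1 and RNF43), 7 windows in all. Only the DKK1 window held a match, CTTTGAA at 95 to 89 bases and CTTTGTT at 76 to 70 bases before the start. Of 35116 such windows 4199 (12%) held at least 1 match. A match describes the letters and shows no binding.

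The 3 genes with the profile most like that of RNF43, the member probe set with the largest called difference on the number, were LRRC28, DHRS13 and PLEKHG1. Their array values, centred on their mean, lay within a root mean square of 0.10, 0.12 and 0.14 log2 units of those of RNF43, among 11549 genes over 6 arrays. The RNF43 values themselves spread by 0.55 about their mean.

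The wider pathway was followed in 7 lists of 102 genes, each gene by its brightest probe set, and 98 were measured, 53 of them above background. POSTN called 0 of 98 by adjusted p, and 0 met the study's thresholds, against 2.07% of all genes. Above background the differences ran from -0.64 to 0.48. On the number, 8 pathway genes were higher and 3 lower in number 1, where the shares of all 19775 genes are 4.64% and 4.31% (8.95% together).

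Among 17 measured ligands, 1 passed: WNT5A, a ligand known for beta-catenin-independent signalling, read 11.33 and 11.32 in the arrays numbered 1 against 10.14 to 10.40 in the others, higher by 1.02 (SE 0.083). Of 18 receptors and R-spondins 3 were higher. They were the Frizzled receptors FZD7 by 1.11 (SE 0.15) and FZD5 by 0.30 (SE 0.067), and the co-receptor LRP6 by 0.68 (SE 0.077). LRP6 gave -0.10 and 0.56 on its other probe sets above background, and FZD5 gave 0.54 (SE 0.30) on its other one, none past the threshold. The other one of FZD7 gave 1.28 and passed. None of 13 cytoplasmic transducers and none of 12 nuclear partners passed. Of 16 inhibitors, SOST, which like DKK1 blocks LRP receptors, was higher by 1.12 (SE 0.18), opposite to DKK1 in direction.

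Of 12 other general targets, 3 were higher in number 1. SOX9, a transcription factor of biliary and progenitor cells, read 9.23 and 8.53 in the arrays numbered 1 and 6.74 to 7.46 in the others, a difference of 1.78 (SE 0.25). The protease MMP7 was higher by 0.69 (SE 0.097) and MYC by 0.28 (SE 0.058). CCND1, a cyclin of the G1 phase, was lower (-0.49, SE 0.11), but its probe set 208711_s_at gave 0.043. The adhesion receptor CD44 was lower (-0.28, SE 0.055), and its 9 other probe sets above background were below 0 too, 8 of them past the threshold. Among 10 pericentral liver targets, OAT, an enzyme of ornithine breakdown, was lower (-0.48, SE 0.081), so that GLUL and OAT moved in opposite directions. Calls among the pathway's targets thus ran both ways. Each of the 11 calls in the pathway lists was lost with the prior variance that does not follow the signal. WNT5A and LRP6 kept theirs on leaving out any 1 array, and the other 9 lost theirs without control replicate 1 or POSTN replicate 1, some without other arrays too. FZD5 lost it in 5 of 6 cases, at differences of 0.26 to 0.33, and CCND1 (-0.71 to -0.26), CD44 (-0.29 to -0.26) and MYC (0.24 to 0.33) in 3 each. In these ranges no sign changed.

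**Figure D5:**
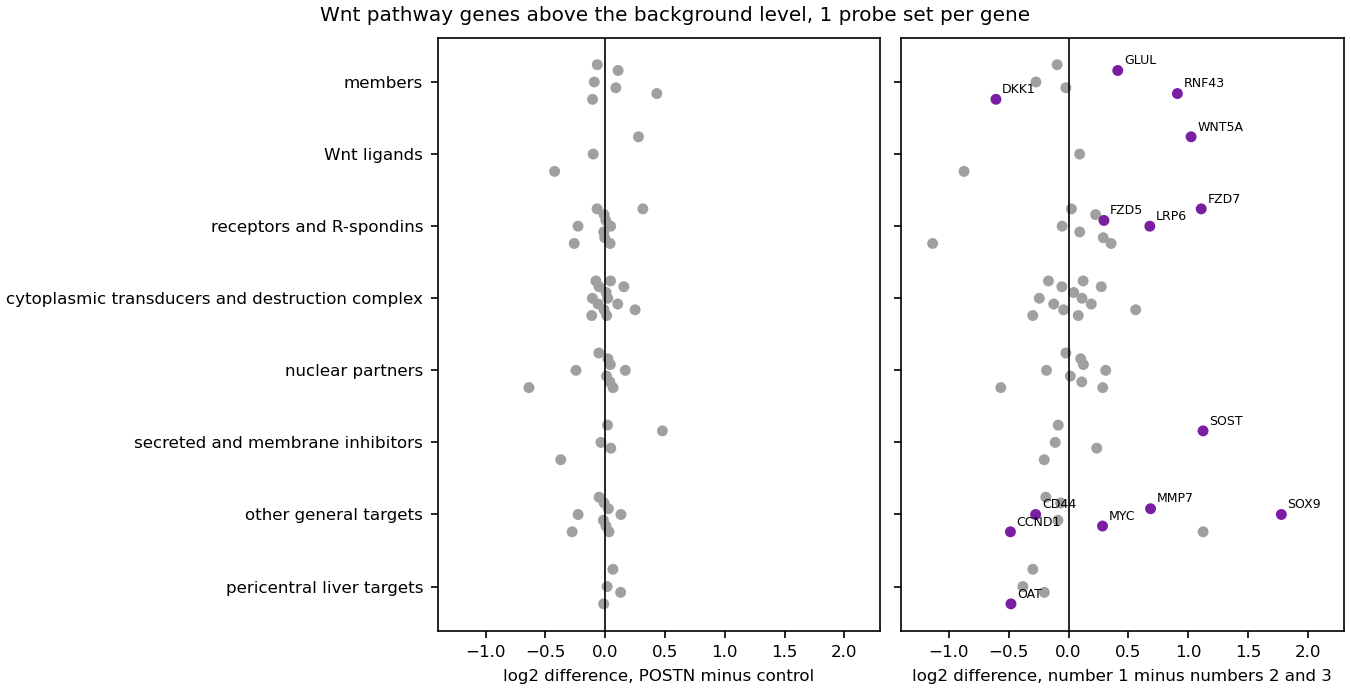
POSTN minus control (left) and arrays numbered 1 minus numbers 2 and 3 (right), on the log2 scale, for the genes above background of the members and of each pathway list by brightest probe set. Genes called by adjusted p are purple and named. None is on the left, and those on the right lie on both sides of 0, and the cytoplasmic transducers and nuclear partners hold none.

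Some cell type markers passed the test on the number as well. Of 9 hepatocyte markers 6 (KRT18, KRT8, AFP, ALB, FGB and TTR) were above background. ALB, FGB and SERPINA1 were called higher in number 1, 3 of the 9 against 4.64% of all genes. The others above background were not called, with AFP at 0.12, KRT8 at -0.035, KRT18 at -0.16 and TTR at -0.44. FGB was higher by 2.65 on the log2 scale. ALB read 7.75 and 7.83 in the arrays numbered 1 and 5.65 to 6.13 in the others, and SERPINA1 7.79 and 7.82 against 4.14 to 5.85, where the mean of the others lies within the background range and gives no fold. The summed signal of the hepatocyte list was 46636 and 50573 in the arrays numbered 1 and 50016 to 54894 in the others. Of 6 stellate cell and fibroblast markers 3 were above background, and DCN was lower (-1.0), with sums of 2899.7 and 3330.2 against 3346 to 3706. Of 4 blood and endothelial markers only PECAM1 was above background, and it was higher by 0.51, with sums of 1309 and 1564 against 939 to 1234. All these sums are of linear signals, so the brightest genes make up most of each. In the hepatocyte list these are KRT18 and KRT8 (mean log2 signals of 15.02 and 13.96). In the stellate cell list it is LUM (11.17), and in the blood list PECAM1 itself (10.10). The sums thus say little about the dimmer markers. FGB and DCN kept their calls on leaving out any 1 array, whereas ALB and SERPINA1 lost theirs without control replicate 1 or POSTN replicate 1 (adjusted p up to 0.21 and 0.25 by limma), and PECAM1 without these or POSTN replicate 3 (up to 0.35). Within the background range lay APOA1, APOA2, SERPINA1, ACTA2, COL1A2, PDGFRB, PTPRC, LYZ and VWF by their mean over the arrays. These values stand beside the differences of DKK1, GLUL and RNF43, and their part in them was not tested. Across the 6 arrays the median log2 signal was 5.80 to 5.95, and 47.7% to 49.7% of probe sets lay above the background level.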

How the data were processed

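Total RNA of 6 samples was hybridized to 1 array each. The deposited values are log2 signals, which the authors made with MAS 5.0 and R's affy (versions not given in the sources used here). On the linear scale the mean without the highest and lowest 2% is 500.0 on every array. Groups and numbers came from the sample labels. No column was left unused, and no 2 arrays held equal values.

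Differences were computed in R 4.3.3 with limma 3.58.1 (lmFit, eBayes with a prior variance following the mean signal), with Benjamini-Hochberg adjustment over 54613 probe sets, 62 Affymetrix controls being left out. Of these, 41091 have 1 gene symbol, 1801 several and 11721 none. No detection calls are in the table, and the background level filtered nothing unless stated. The scripts were tested on simulated data. The members, the gene lists and the comparison of numbers were chosen with earlier results of these data known. Values by sample are given for the brightest probe set of each member and for others called. Every pathway gene called on the number is named, which is more than was planned. Further probe sets named were chosen after their values were seen.

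Same-numbered control and POSTN arrays deviated together from their condition's mean (correlations of 0.529, 0.235 and 0.239 over the probe sets above background, and 0.088, 0.034 and 0.025 over all). Unmatched pairs of numbers 2 and 3 came close, with 0.201 for control 2 and POSTN 3 and 0.150 for control 3 and POSTN 2. Every matched pair was over 0.1 above background, but so were these unmatched ones, so this level does not show that numbers 2 and 3 are pairs. The main fit of POSTN against control held no block. Only the alternative with the replicate block treated the numbers as pairs, from the data and not from the labels. Alternatives were quantile normalization, median centring, log2(value + 50), filters on dim probe sets and on those ending in _x_at or _s_at, no trend, leaving out arrays, the replicate block and the methods' t-test. Leaving out both arrays numbered 1, the interaction of number and condition, and the alternatives for the pathway and marker genes, were chosen after seeing the data. The number of arrays limits the precision.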

Additional observations from a re-analysis of the deposited data

How the results depend on the processing

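For POSTN against control, no alternative gave a member probe set an adjusted p under 0.05 by limma. The number of all probe sets at the study's thresholds was 1398, and it was 14 on log2(value + 50), 49 with a mean above background, 2 with every array above background, and 1314 to 1530 leaving out 1 array. For members it was 0, and 0 to 2 leaving out 1 array (2 without control replicate 2). In the paired fit with the replicate block it was 1463 for all probe sets and 0 for members, and the block changed no adjusted call. RNF43 (unadjusted p = 0.044) and AXIN2 224176_s_at (unadjusted p = 0.037) passed there only before adjustment by limma. That is 2 of 22 member probe sets, where 2601 of all 54613 probe sets passed in this fit before adjustment. For number 1 against 2 and 3, 3069 probe sets and 5 of members passed. The counts were 4167 and 6 among probe sets with a mean above background (adding AXIN2 222696_at), and 4255 and 7 with every array above it (adding CTNNB1 223679_at too). Leaving out the _x_at and _s_at probe sets, which removes the 3 called GLUL probe sets, the counts were 1750 and 2, and with no trend they were 0 and 0. On log2(value + 50) the counts were 2520 and 2 (GLUL 200648_s_at and DKK1). Leaving out 1 array gave 657 to 3073 probe sets (657 without POSTN replicate 1, 718 without control replicate 1, 1869 without POSTN replicate 3) and 1 to 5 of members. The 1 was DKK1, without control replicate 1 or POSTN replicate 1. RNF43 was not called under quantile normalization (adjusted p = 0.072), median centring (0.050) or without the condition term (0.063). The cause of these changes was not tested. No direction of a called value reversed.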
